A study of Homo sapiens with 6 samples.

Results

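The genes examined here are those that the deposited annotation assigned to the KEGG pathway "Complement and coagulation cascades". Of the 29153 genes listed, 69 carried that entry. The rule used no measured value, but the pathway was chosen with earlier results of these data known. Levels were compared between 2 groups of HepG2 cells, an established line derived from a human liver cancer. One group had been infected for 72 h with a lentivirus carrying a short hairpin RNA against the long noncoding RNA LINC01977 (shLINC01977 in the labels, genotype LINC01977 knockdown, here sh-LINC01977), and the other with the shNC lentivirus (genotype Control, here sh-NC). Each group had 3 RNA-seq libraries of total RNA. The study's methods describe selection of infected cells with puromycin, and the titles name 1 hairpin against LINC01977, so effects of the hairpin and of its target cannot be told apart. No label says that the libraries of a group came from separate cultures, so the p-values measure the spread between libraries, which may be technical.

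Coagulation and complement are both cascades of plasma proteins in which one protease cleaves and activates the next. Coagulation ends with thrombin turning fibrinogen into fibrin, which plasmin later dissolves, while complement marks and lyses microbes through C3 and the membrane attack complex. Hepatocytes make most of these proteins, together with the serpins and other inhibitors that hold the proteases in check, and HepG2 cells retain much of that secretory programme. Receptors for the cascades' products sit mainly on endothelial cells, platelets and leukocytes.

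Library totals lay between 49929024 and 60441515 counts. Normalised counts (CPM, scaled to the tested genes of a library with TMM factors) are given below for comparisons of 1 gene between libraries, and FPKM, which is also scaled to transcript length, for comparisons between genes. A gene was tested when its mean FPKM over the 6 libraries was at least 0.5, which held for 13452 genes and for 49 of the 69 members. The hepatocyte products ALB (encoding albumin) and APOA1 (apolipoprotein A-I) had mean FPKM of 1084 and 616. LINC01977 (ENSG00000262772) had counts of 4, 0 and 16 in the sh-NC libraries and of 0, 0 and 4 in the sh-LINC01977 libraries. Its reduction was not detectable at this depth (log2 fold change -2.12, standard error (SE) 1.96, adjusted p = 0.580, edgeR fit of all genes), so in these libraries the groups rest on the labels. The study reports a qRT-PCR check of LINC01977 knockdown in HepG2 cells, which is not part of these libraries.

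The tested complement and coagulation genes were more often lower than higher in the sh-LINC01977 libraries. At an adjusted p under 0.05 (edgeR quasi-likelihood test, Benjamini-Hochberg adjustment over all tested genes), 18 of 49 members were lower, or 36.7%, where 8.07% of all tested genes were lower. Higher levels passed the same test in 5 members, or 10.2%, beside 7.05% of all tested genes. When libraries were scaled to their totals instead of by TMM, the members split into 17 lower and 9 higher. The median log2 fold change was -0.26 over the members and -0.0010 over all tested genes, with 33 members below 0 and 16 above. Past the study's own thresholds, a change of at least 2-fold with an unadjusted P of at most 0.05, 6 members were lower (12.2%, against 1.05% of all tested genes) and 1 was higher (2.04%, against 1.55%). The 6 were F11, FGA, SERPINF2, CPB2, FGB and SERPINC1, and the 1 was C1R. In 23 members (46.9%) every sh-LINC01977 library lay below every sh-NC library, which held for 18.3% of all tested genes, and in 8 (16.3%) every one lay above, against 18.8%. For such members the exact two-sided permutation test gives p = 0.1, the smallest it can give with 3 libraries against 3.

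**Figure D1:**
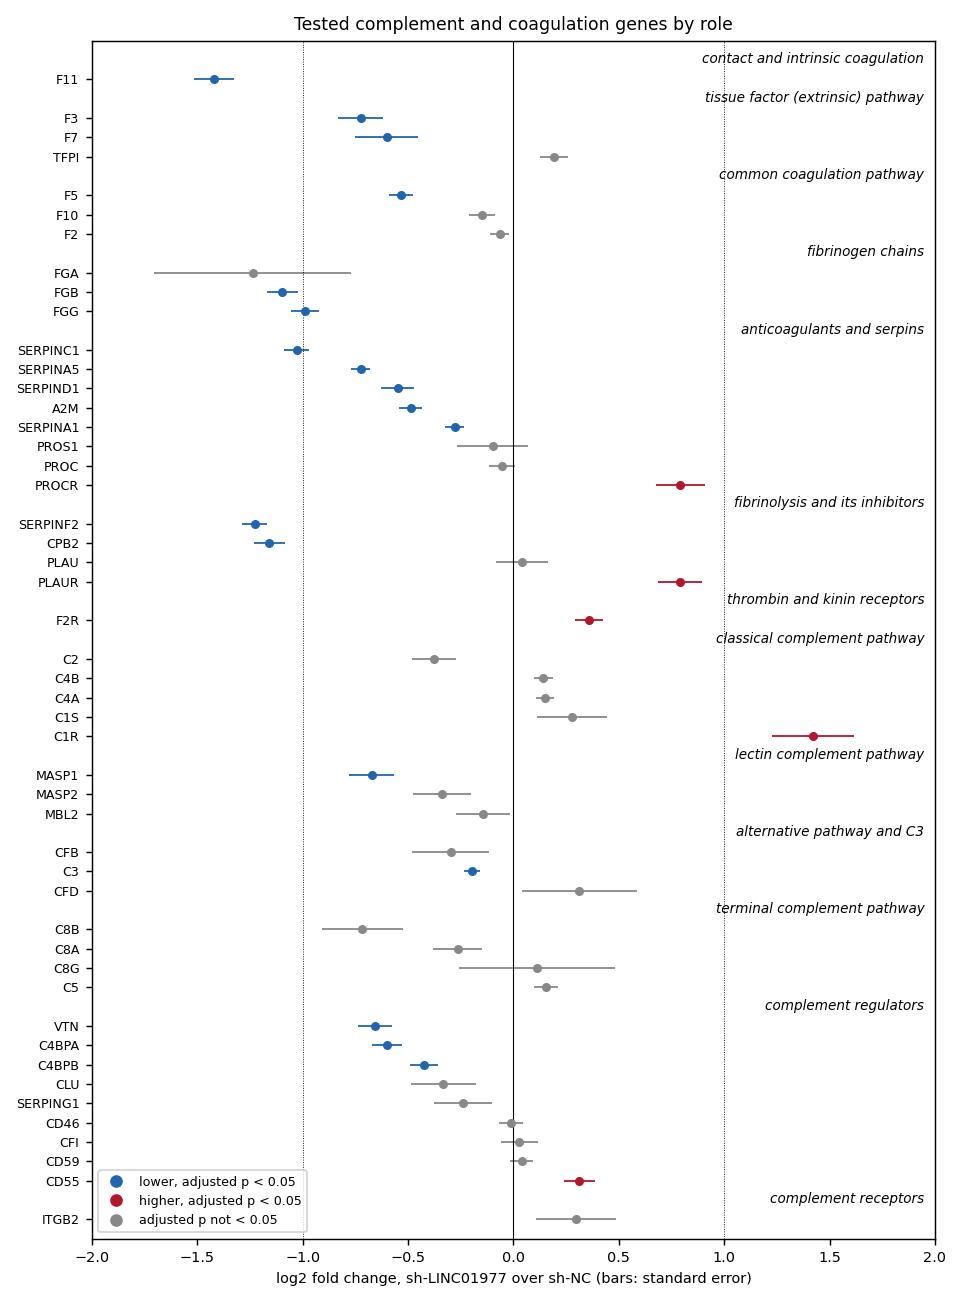
Log2 fold change of tested members (x axis, sh-LINC01977 over sh-NC) with the standard error as bars, 1 gene per line and grouped by role; dotted lines mark 2-fold. The 18 members lower at an adjusted p under 0.05 are blue and run down to -1.42 (F11), and the 5 higher ones are red and run up to 1.42 (C1R).

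The 3 fibrinogen genes form 1 cluster on chromosome 4 (deposited coordinates, GRCh38), with FGB at 154562956 to 154571086 on the plus strand, FGA at 154583126 to 154590766 and FGG at 154604134 to 154612967 on the minus strand. They encode the alpha (FGA), beta (FGB) and gamma (FGG) chains that are assembled into the fibrinogen hexamer. FGB stood at 237, 219 and 241 CPM in the sh-NC libraries and at 102, 119 and 105 CPM in the sh-LINC01977 libraries. FGG gave 403, 366 and 398 CPM against 194, 210 and 184 CPM. For both genes the groups lay well apart, and the 3 values within a group were close together. The log2 fold change was -1.10 for FGB (SE 0.074, adjusted p = 0.000692) and -0.99 for FGG (SE 0.065, adjusted p = 0.000692), so FGG, at 1.98-fold, missed the 2-fold limit.

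FGA behaved less evenly. Its levels were 205, 483 and 190 CPM in the sh-NC libraries and 85.9, 91.2 and 195 CPM in the sh-LINC01977 libraries. The second sh-NC library and the third sh-LINC01977 library were each more than 2-fold above the others of their group, and the groups overlapped. The log2 fold change of -1.24 had a SE of 0.47 (adjusted p = 0.130, edgeR), and it was -0.67 without the second sh-NC library and -1.72 without the third sh-LINC01977 library, past the adjusted threshold in neither fit. Per transcript length, FGA was at 0.541 to 0.591 times FGB in the 2 other sh-NC libraries and at 0.524 and 0.578 times FGB in the 2 other sh-LINC01977 libraries, but at 1.51 times in the second sh-NC library and at 1.27 times in the third sh-LINC01977 library. The ratio of FGG to FGB stayed between 1.24 and 1.43 in all 6 libraries. These 2 libraries also had the lowest totals of their groups, 50583944 and 49929024 counts, and the part of depth in the FGA values was not tested.

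**Figure D2:**
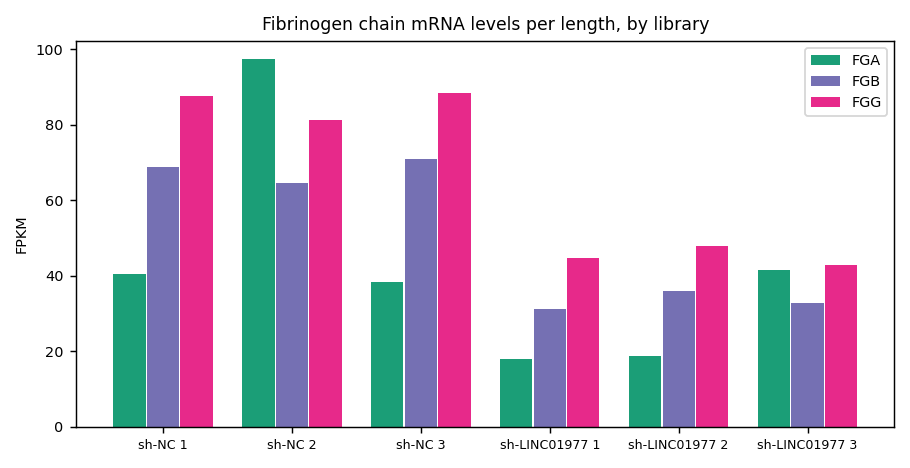
FPKM (y axis) of FGA, FGB and FGG as bars in each of the 6 libraries, with no averaging. FGB and FGG were lower in all 3 sh-LINC01977 libraries, whereas FGA exceeded FGB in the second sh-NC library (ratio 1.51) and the third sh-LINC01977 library (ratio 1.27).

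The promoter windows of the fibrinogen genes are printed because these neighbours are known to be transcribed together in hepatocytes, and that of C1R because it was the tested member with the largest increase. Each window holds the 250 bases before the RefSeq transcription start nearest to the deposited gene start, in GRCh38.p14, 5′ to 3′ on the gene's strand. Capitals mark every match, on either strand, to an HNF1 site part (GTTAAT), a C/EBP site (TTGCNNAA), a STAT site (TTCNNNGAA) or the core of the IL-6 response element (CTGGGA), and no printed match overlaps another.
FGA promoter, chr4:154590743-154590992, minus strand: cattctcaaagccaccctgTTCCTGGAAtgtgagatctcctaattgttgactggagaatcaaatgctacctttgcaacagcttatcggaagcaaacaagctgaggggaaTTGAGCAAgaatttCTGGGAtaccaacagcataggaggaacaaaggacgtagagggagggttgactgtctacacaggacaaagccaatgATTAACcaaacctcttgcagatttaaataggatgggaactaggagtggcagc
FGB promoter, chr4:154562730-154562979, plus strand: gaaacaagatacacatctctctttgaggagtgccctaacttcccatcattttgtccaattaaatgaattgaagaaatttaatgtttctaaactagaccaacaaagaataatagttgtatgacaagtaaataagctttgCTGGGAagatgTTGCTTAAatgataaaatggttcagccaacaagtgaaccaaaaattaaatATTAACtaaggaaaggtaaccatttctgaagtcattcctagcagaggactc
FGG promoter, chr4:154612657-154612906, minus strand: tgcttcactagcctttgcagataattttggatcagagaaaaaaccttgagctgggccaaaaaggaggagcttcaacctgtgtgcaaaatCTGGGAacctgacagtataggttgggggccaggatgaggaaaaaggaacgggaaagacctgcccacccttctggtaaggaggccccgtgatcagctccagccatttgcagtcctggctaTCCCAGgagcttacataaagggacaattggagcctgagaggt
C1R promoter, chr12:7092446-7092695, minus strand: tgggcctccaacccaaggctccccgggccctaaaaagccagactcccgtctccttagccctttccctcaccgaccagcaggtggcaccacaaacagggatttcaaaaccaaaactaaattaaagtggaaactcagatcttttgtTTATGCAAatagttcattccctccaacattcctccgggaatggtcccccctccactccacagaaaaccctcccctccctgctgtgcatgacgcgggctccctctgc
FGA and FGB both held GTTAAT, at -52 to -47 and at -51 to -46 before the start, a C/EBP match at -141 to -134 and at -101 to -94, and CTGGGA at -127 to -122 and at -112 to -107. FGG held CTGGGA at -161 to -156 and at -42 to -37 and none of the other letters, and C1R held a single C/EBP match at -106 to -99. Promoters were listed for 52 of the 69 members. GTTAAT was present in 10 of the 52 (19.2%), against 6.23% of all 35116 listed promoters, TTGCNNAA in 9 (17.3%, against 9.05%), TTCNNNGAA in 11 (21.2%, against 6.57%) and CTGGGA in 18 (34.6%, against 28.7%). A FOXA motif (TGTTTAC) was found in 5 (9.62%, against 2.98%), and the full HNF1 palindrome (GTTAAT and TTAAC around 2 free bases, so that each match also counts as GTTAAT) and an HNF4 motif (CAAAGTCCA) in none (against 0.0285% and 0.325%). Among the 14 matched members that were lower at an adjusted p under 0.05, GTTAAT occurred in 2 and TTGCNNAA, TTCNNNGAA and CTGGGA in 3, 3 and 5. Among the 4 matched members that were higher, GTTAAT and TTCNNNGAA occurred in 0, TTGCNNAA in 2 and CTGGGA in 3. These matches describe letters and were not tested as binding sites.

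Upstream of fibrinogen, the factors of coagulation did not move as a block. F11, whose product factor XI is the protease that activates factor IX, was the most reduced of the 49 tested members by fold change. F11 (ENSG00000088926, chromosome 4, 186265945 to 186288806) was at 16.6, 15.6 and 16.8 CPM in the sh-NC libraries and at 6.32, 6.29 and 5.69 CPM in the sh-LINC01977 libraries. All sh-LINC01977 values lay far under the lowest sh-NC value, and the change was -1.42 on the log2 scale (SE 0.097, adjusted p = 0.000692). The other 5 contact and intrinsic genes were under the filter. Among them KNG1, which encodes kininogen, had counts of 177, 149 and 183 against 66, 53 and 57, with no overlap, and was the only one of the 20 members below the filter to pass in the edgeR fit of all genes (log2 fold change -1.57, SE 0.21, adjusted p = 0.0065, a call that 0.197% of the genes below the filter received as lower). F12, encoding factor XII, lay just under the limit at a mean FPKM of 0.496 and gave -0.30 (SE 0.23, adjusted p = 0.494). KLKB1, the neighbour of F11 that encodes plasma prekallikrein, had counts of 0 to 17.

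Of the tissue factor pathway, F3 (tissue factor, the membrane trigger of coagulation) and F7 (the protease it binds) were lower, with means of 12.5 ± 0.71 against 7.55 ± 0.588 CPM and 23.9 ± 4.17 against 15.7 ± 1.43 CPM (SD, n = 3). F3 changed by -0.72 on the log2 scale (SE 0.11, adjusted p = 0.00719) and F7 by -0.60 (SE 0.15, adjusted p = 0.0393). The call for F7 held in 8 of 16 alternative fits. It was lost without the FPKM filter (adjusted p = 0.0557, edgeR fit of all genes) and with limma on log2(FPKM + 0.1) or log2(FPKM + 1). Nor did it hold without the first or second sh-NC library or without any single sh-LINC01977 library (adjusted p from 0.0813 to 0.109). TFPI, the inhibitor of this complex, was at 187 ± 13.5 against 213 ± 11.3 CPM and did not pass (log2 fold change 0.19, 95% interval 0.03 to 0.35, adjusted p = 0.112).

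F2 encodes prothrombin, the precursor of thrombin. It was at 310, 328 and 319 CPM in the sh-NC libraries and at 316, 303 and 296 CPM in the sh-LINC01977 libraries, and the groups overlapped. Its log2 fold change was -0.07 with a 95% interval of -0.17 to 0.04 (adjusted p = 0.361). F5, the cofactor that speeds thrombin formation, was at 188, 192 and 188 against 133, 139 and 122 CPM, so every sh-LINC01977 library was lower. The change of F5 was -0.53 (SE 0.057, adjusted p = 0.00244), and that of F10, which encodes factor X, was -0.15 (SE 0.063, adjusted p = 0.168). F13B had counts of 19, 34 and 25 against 12, 8 and 16 and lay below the filter.

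The natural anticoagulants and circulating protease inhibitors form one of the largest groups, and 5 of their 8 tested members were lower and 1 higher, beside 8.07% and 7.05% of all tested genes. SERPINC1 (antithrombin, the main inhibitor of thrombin and factor Xa) was at 87.6, 93.8 and 95.3 CPM in the sh-NC libraries and at 44.4, 46.7 and 44.4 CPM in the sh-LINC01977 libraries, a log2 fold change of -1.03 (SE 0.058, adjusted p = 0.000466). SERPINA5 (protein C inhibitor) was at 390, 388 and 418 against 238, 241 and 245 CPM (-0.72, SE 0.044, adjusted p = 0.000548). SERPIND1 (heparin cofactor II) was at 263, 292 and 264 against 202, 189 and 168 CPM (-0.55, SE 0.079, adjusted p = 0.00671). None of these 3 genes overlapped between groups. SERPIND1 lies on the opposite strand within PI4KA, whose counts were 34.5% of those of SERPIND1 and whose log2 fold change was -0.02 (adjusted p = 0.923), and whether counting used the strand is not given in the sources used here.

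The 2 most abundant members per transcript length belong to the same group. A2M (alpha-2-macroglobulin, a broad trap for proteases) had a mean FPKM of 549 and SERPINA1 (alpha-1-antitrypsin, the inhibitor of neutrophil elastase) of 324. A2M was at 4961, 4761 and 5444 CPM in the sh-NC libraries and at 3548, 3537 and 3731 CPM in the sh-LINC01977 libraries, with a log2 fold change of -0.49 (SE 0.055, adjusted p = 0.00294). SERPINA1 was at 2098, 2242 and 2097 against 1820, 1687 and 1797 CPM, a smaller change of -0.28 (SE 0.046, adjusted p = 0.0101). Both separated the groups in all 6 libraries. PROC, the protease of the protein C system, did not pass, with -0.05 (95% interval -0.20 to 0.10, adjusted p = 0.611), nor did PROS1, its cofactor protein S, with -0.10 (95% interval -0.50 to 0.31, adjusted p = 0.739).

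PROCR, the membrane receptor that presents protein C for activation, was one of the members that rose. It was at 9.99, 8.15 and 9.02 CPM in the sh-NC libraries and at 14.8, 15.1 and 17.1 CPM in the sh-LINC01977 libraries, and the lowest of the latter exceeded the highest of the former. The log2 fold change was 0.79 (SE 0.12, adjusted p = 0.00688). MMP24-AS1, an antisense gene that overlaps PROCR, had counts of 83, 221 and 132 against 91, 105 and 14, which is 15.8% of the counts of PROCR in all. THBD, the receptor for thrombin that completes this complex, had 0 counts in every sh-NC library and 0, 12 and 4 in the sh-LINC01977 libraries.

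**Figure D3:**
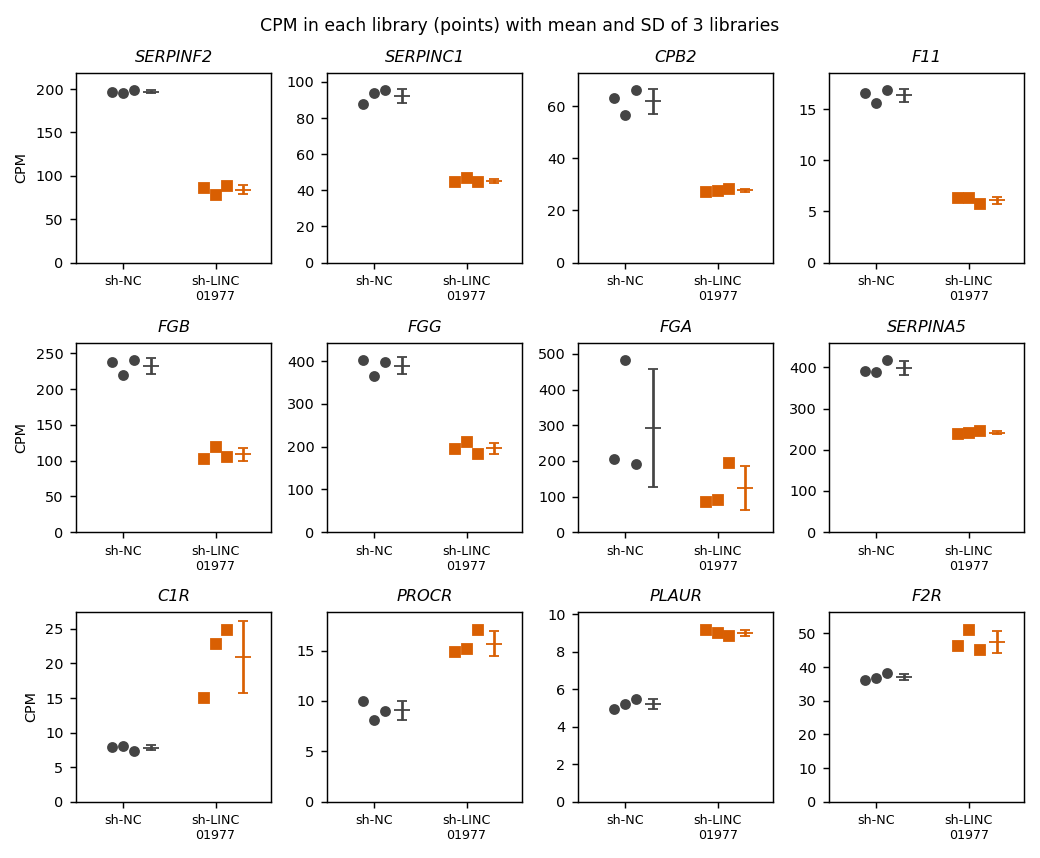
CPM of 12 members in each library (y axes start at 0), with circles for sh-NC, squares for sh-LINC01977 and a bar for the mean and SD of 3 libraries. The groups do not overlap in 11 of the 12, of which SERPINF2, SERPINC1, CPB2, F11, FGB, FGG and SERPINA5 are lower and C1R, PROCR, PLAUR and F2R higher in sh-LINC01977, while FGA overlaps. All 12 had already passed the adjusted or the 2-fold threshold, so this separation is not separate support. Over all tested genes, 18.3% lay fully lower and 18.8% fully higher.

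In fibrinolysis the reduced genes were inhibitors. SERPINF2 (alpha-2-antiplasmin, the direct inhibitor of plasmin) had the smallest p of the tested members, with 197, 195 and 198 CPM in the sh-NC libraries and 85.9, 77.9 and 88.6 CPM in the sh-LINC01977 libraries. It changed by -1.23 on the log2 scale (SE 0.059, adjusted p = 0.000347). CPB2 (a carboxypeptidase that removes the plasmin binding sites of fibrin) was at 63.1, 56.6 and 66.1 against 27.1, 27.7 and 28.4 CPM, a change of -1.16 (SE 0.073, adjusted p = 0.000644). Both were lower without overlap between groups, by 2.34-fold for SERPINF2 and 2.23-fold for CPB2.

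Of the genes that promote plasmin formation, the receptor of urokinase rose. PLAUR, which encodes it, was at 4.96, 5.21 and 5.45 CPM in the sh-NC libraries and at 9.18, 8.99 and 8.86 CPM in the sh-LINC01977 libraries, with a log2 fold change of 0.79 (SE 0.10, adjusted p = 0.0049). PLAU (urokinase) overlapped between groups, at 6.07 ± 0.382 against 6.23 ± 0.477 CPM (log2 fold change 0.04, 95% interval -0.25 to 0.33, adjusted p = 0.866). PLAT (tissue plasminogen activator) lay below the filter with counts of 100, 38 and 88 against 145, 169 and 145, and its change of 0.98 in the fit of all genes did not pass (SE 0.32, adjusted p = 0.155). PLG, encoding plasminogen itself, had counts between 0 and 20. Of the receptors for thrombin and kinins, F2R (the main thrombin receptor) rose from 37.0 ± 0.964 to 47.4 ± 3.25 CPM, a log2 fold change of 0.36 (SE 0.068, adjusted p = 0.0165). Without the first or the second sh-NC library its adjusted p was 0.0599 and 0.0555. F2RL2, BDKRB1 and BDKRB2 had no count above 12 in any library.

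On the complement side, C1R (ENSG00000159403, chromosome 12, 7080209 to 7092607), the first protease of the classical pathway, had the largest increase of the tested members. It was at 7.88, 8.13 and 7.39 CPM in the sh-NC libraries and at 15.0, 22.8 and 24.9 CPM in the sh-LINC01977 libraries. The treated libraries differed among themselves by more than the controls but all lay above them, and the log2 fold change was 1.42 (SE 0.19, adjusted p = 0.00538). C1R overlaps C1RL, a related protease gene on the same strand with 16321 counts against 4762 for C1R, and 13.8% of the windows of 100 nucleotides in the longest C1R transcript also occur in another gene, most in C1RL. C1RL itself gave -0.10 (SE 0.060, adjusted p = 0.293). C1S, the partner protease next to C1R, was at 61.2 ± 7.59 against 74.3 ± 16.5 CPM and did not pass (0.28, 95% interval -0.12 to 0.68, adjusted p = 0.308). A separate difference between the changes of C1R and C1S was not tested.

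The next components of the classical pathway lie in the major histocompatibility complex on chromosome 6. C4A was at 238, 234 and 240 CPM in the sh-NC libraries and at 272, 254 and 264 CPM in the sh-LINC01977 libraries, and C4B at 255, 246 and 250 against 288, 270 and 270 CPM. Both were above the controls in every library, by 0.15 (SE 0.042, adjusted p = 0.0572) and 0.14 (SE 0.044, adjusted p = 0.0765) on the log2 scale, short of the threshold, though both passed with scaling by library totals (adjusted p = 0.0237 and 0.023). They are near copies, sharing 87.8% and 88.4% of their windows of 100 nucleotides, so their counts are uncertain and not independent. C2, which supplies the protease of the classical C3 convertase, was at 145 ± 5.64 against 112 ± 15.5 CPM, with no overlap and a change of -0.38 that fell short (SE 0.10, adjusted p = 0.0552; DESeq2 adjusted p = 0.00656). CFB, the matching protease of the alternative pathway, gave -0.30 (SE 0.18, adjusted p = 0.320). C2 and CFB share 55.1% and 77.9% of their windows with other genes, mostly the readthrough gene AL645922.1, and are likewise uncertain. AL645922.1 had counts of 541, 64 and 2040 in the sh-NC libraries and of 555, 3269 and 1010 in the sh-LINC01977 libraries. The library with 3269 also had the lowest C2 (94.1 CPM) and CFB (49.6 CPM). The part of the readthrough gene in the C2 and CFB values was not tested.

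C3, on which all complement pathways converge, was the third most abundant member, with a mean FPKM of 199. It was at 2125, 2220 and 2209 CPM in the sh-NC libraries and at 1974, 1851 and 1899 CPM in the sh-LINC01977 libraries, so that all of the latter were lower. The change was small, -0.20 on the log2 scale (SE 0.038, adjusted p = 0.0181), and the call was lost in 8 of 16 alternative fits, among them those without the second or the third library of either group (adjusted p 0.0572 to 0.0668) and that with library totals (adjusted p = 0.0852). CFD, the protease that cleaves factor B, was at 1.51 ± 0.493 against 1.87 ± 0.0464 CPM, with overlap (0.31, 95% interval -0.33 to 0.96, adjusted p = 0.482).

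In the lectin pathway MASP1, a protease that starts the cascade from bound mannose-binding lectin, fell from 14.5 ± 0.238 to 9.12 ± 0.938 CPM (-0.67, SE 0.10, adjusted p = 0.00863). MASP1 had the lowest mean FPKM of the tested members, 0.721, and its call did not hold with limma on log2(FPKM + 0.1) (adjusted p = 0.0648). MASP2, the protease that cleaves C4 and C2, and MBL2, mannose-binding lectin, gave -0.34 (95% interval -0.67 to -0.01, adjusted p = 0.157) and -0.14 (95% interval -0.45 to 0.17, adjusted p = 0.50). The terminal components, which build the membrane attack complex, had 0 of 4 tested members past the adjusted threshold in edgeR, with 1 higher (C5) and 1 lower (C8B) at an unadjusted P under 0.05, and C8B as the only call by DESeq2 (adjusted p = 0.0185). C5 was at 78.2 ± 1.52 against 87.1 ± 4.51 CPM (0.16, SE 0.056, adjusted p = 0.118) and C8B at 3.40 ± 0.444 against 2.07 ± 0.295 CPM (-0.72, SE 0.19, adjusted p = 0.051). C8A and C8G, the other chains of C8, gave -0.26 and 0.11 (adjusted p = 0.182 and 0.875). C6 lay below the filter with counts of 44, 47 and 70 against 19, 23 and 8, which do not overlap (-1.75, SE 0.43, adjusted p = 0.0652, fit of all genes).

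Among the complement regulators, 3 of 9 were lower and 1 higher, beside 8.07% and 7.05% of all tested genes. The 3 lower ones encode soluble proteins, as do CLU, SERPING1 and CFI, which were not called. C4BPA and C4BPB, neighbours on chromosome 1 that encode the chains of the C4b-binding protein, fell together. C4BPA was at 43.0, 39.0 and 41.8 CPM in the sh-NC libraries and at 27.9, 28.1 and 25.6 CPM in the sh-LINC01977 libraries (-0.60, SE 0.071, adjusted p = 0.00322). C4BPB, the chain that binds protein S, was at 53.5 ± 3.28 against 39.8 ± 1.65 CPM (-0.42, SE 0.068, adjusted p = 0.00939). VTN (vitronectin, an adhesive plasma protein that also blocks the membrane attack complex) was at 61.0 ± 0.815 against 38.7 ± 3.91 CPM (-0.66, SE 0.082, adjusted p = 0.00396). CLU (clusterin) and SERPING1 (the C1 inhibitor) overlapped between groups and did not pass, at -0.33 (95% interval -0.70 to 0.03, adjusted p = 0.197) and -0.24 (95% interval -0.57 to 0.09, adjusted p = 0.288).

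CD46, CD55 and CD59 are membrane regulators, which protect the cell's own surface. CD46 and CD59 had log2 fold changes of -0.01 (95% interval -0.15 to 0.12, adjusted p = 0.909) and 0.04 (95% interval -0.09 to 0.17, adjusted p = 0.670). CD55, which speeds the decay of the C3 convertases, was at 14.6 ± 0.335 against 18.2 ± 0.314 CPM with no overlap (0.31, SE 0.074, adjusted p = 0.0349), but leaving out any single library lost the call (adjusted p 0.0761 to 0.0983). CFI, the protease that cuts C3b and C4b, gave 0.03 (95% interval -0.18 to 0.24, adjusted p = 0.865), and 42.0% of its windows of 100 nucleotides are shared with another gene. Of the complement receptors only ITGB2, the common beta chain of the leukocyte integrins, was tested (0.30, 95% interval -0.15 to 0.75, adjusted p = 0.336). C3AR1, C5AR1, CR2, ITGAM and ITGAX lay below the filter at mean FPKM of 0.0039 to 0.0883.

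The 20 members below the filter had mean FPKM from 0.00299 to 0.496, and in 9 of them every count was under 20. Nearest to the limit were PLAT (0.250), KNG1 (0.447) and F12 (0.496) outside it and MASP1 (0.721), C8B (0.797) and CFD (1.12) inside it. No tested member had passed through 1 group alone, since both group means were at least 0.5 in all 49. THBD, CR2, BDKRB2 and F2RL2 were at 0 in all sh-NC libraries, and no fold is given for them. Genes of the pathway other than these 69 are not analysed here.

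The calls were also counted by abundance per transcript length. Of the 30 with a mean FPKM of at least 10, 14 were lower and 0 higher at an adjusted p under 0.05 in edgeR, beside 13.9% and 7.94% of the 3452 tested genes of that level. At an unadjusted P under 0.05, 4 of the 30 were higher (C4A, C4B, C5 and TFPI), and at the adjusted threshold DESeq2 called 1 and limma on log2(FPKM + 0.1) called 3 higher. Of the 19 with a mean FPKM between 0.5 and 10, 4 were lower and 5 higher, beside 6.06% and 6.74% of the 10000 genes of that level. Among the 10 most abundant members 8 were lower. Together the members made up 1.40% ± 0.0451 of all counts in the sh-NC libraries and 1.13% ± 0.0302 in the sh-LINC01977 libraries (SD, n = 3), with no overlap (exact two-sided permutation test, p = 0.1). A2M, SERPINA1 and C3 held 65.5% of the members' counts, and without them the shares were 0.483% ± 0.0308 and 0.391% ± 0.00416. In bulk RNA, fewer expressing cells and less RNA per cell cannot be told apart.

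**Figure D4:**
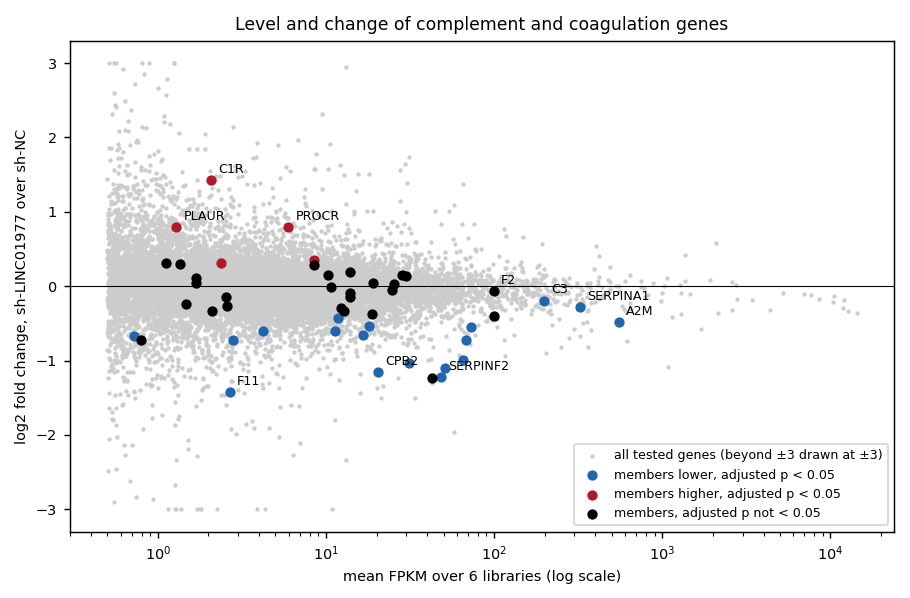
Mean FPKM over the 6 libraries (x axis, log scale) against log2 fold change (y axis, sh-LINC01977 over sh-NC) for all 13452 tested genes in grey and the 49 members in colour. Members with a mean FPKM of 10 or more include 14 that were lower and 0 that were higher at an adjusted p under 0.05, and the 5 higher ones all lie below 10.

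A grouping by the deposited term for an integral component of membrane was made after the values were seen and is a description only. The term does not separate membrane-bound from soluble products. It covers PROS1 (protein S) and C8A (a terminal component) and leaves out the membrane regulators CD55 and CD59. Of the 8 tested members annotated by the authors as integral to a membrane, 3 were higher (PROCR, PLAUR and F2R) and 1 lower (F3), with a median log2 fold change of 0.14. Of the other 41, 2 were higher (C1R and CD55) and 17 lower, with a median of -0.33. Over all 2457 tested genes with that annotation, 250 were higher and 256 lower. The deposited plasma membrane term gave another picture, with 4 higher and 10 lower of 28 tested members and a median of -0.17. Over all 2012 tested genes with the plasma membrane term, 264 were higher and 233 lower. The extracellular region term covered 47 tested members, 5 higher and 18 lower, beside 122 and 132 of 823 tested genes. By position, of the 6 clusters with at least 2 tested members within 100 kb of each other, 1, the C4BPA and C4BPB pair, had every tested member called in 1 direction. The FGA, FGB and FGG cluster had 2 of 3 called, and F7 was lower while its neighbour F10 was not called.

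Companion genes outside the KEGG pathway were read from lists of known function. Their calls stand beside 8.07% lower and 7.05% higher among all tested genes. The vitamin K cycle, which makes the carboxylated domains that F2, F7, F10 and PROC need, had 1 of 5 tested genes higher, GGCX, the carboxylase itself (0.22, SE 0.051, adjusted p = 0.0334), and 1 lower, PROZ, which encodes the vitamin K-dependent protein Z (-1.24, SE 0.14, adjusted p = 0.00295). Of 7 tested genes for secretion and processing, FURIN, a protease that trims proproteins, was higher (0.45, SE 0.055, adjusted p = 0.00359) and FAM20C, a kinase of secreted proteins, lower (-0.87, SE 0.099, adjusted p = 0.00295). LMAN1 and MCFD2, the cargo receptor for factors V and VIII, were not called (0.05 and -0.09, adjusted p = 0.439 and 0.203). Of 11 tested complement and coagulation genes that KEGG does not list, 1, TFPI2, an inhibitor of plasmin in the matrix, had passed the filter only through the group where it was high. Its mean FPKM was 0.180 in the sh-NC libraries and 1.09 in the sh-LINC01977 libraries, and no test is given for it. Of the other 10, 1 was higher and 2 were lower. ANXA2, a surface receptor for tissue plasminogen activator, rose by 0.56 (SE 0.079, adjusted p = 0.00588), TMPRSS6, a liver membrane protease, fell by 0.58 (SE 0.15, adjusted p = 0.0435) and THBS1, encoding thrombospondin, fell by 0.25 (SE 0.041, adjusted p = 0.00984).

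Markers of the cell types that carry most receptors of the cascades were read as the sum of each list. The summed FPKM of the endothelial list was 0.302 to 0.549 in the sh-NC libraries and 0.231 to 0.330 in the sh-LINC01977 libraries, and that of the platelet list 0.144 to 0.218 and 0.377 to 0.468, with no gene of either list above the filter. The leukocyte list summed to 10.5 to 13.3 and 14.5 to 16.8, nearly all of it CD68. CD14 and AIF1 had mean FPKM of 0.876 and 0.195, and PTPRC, CSF1R and CD163 of 0.00109, 0.0072 and 0.00414. CD68 did not pass in edgeR (0.44, SE 0.13, adjusted p = 0.0627) but was called higher by DESeq2 and by limma. The stellate cell list summed to 19.9 to 20.1 and 20.8 to 25.8, with ACTA2, COL1A1 and PDGFRB at mean FPKM of 16.6, 3.72 and 1.10 and COL3A1 at 0.00372. Of these, PDGFRB was higher (1.47, SE 0.21, adjusted p = 0.0062). Of 8 hepatocyte markers 5 were lower, led by ALB (-1.09, SE 0.041, adjusted p = 0.000175), and none was higher, either at an unadjusted P under 0.05 or with DESeq2 or limma. Mean FPKM of these markers ran from 10.7 (TTR) to 1145 (AFP). Where genes averaged 10 FPKM or more, 13.9% were lower and 7.94% higher (edgeR, adjusted p under 0.05). Shares over all tested genes were 8.07% and 7.05%. The list summed to between 4937 and 5332 FPKM in the sh-NC libraries and to between 3579 and 3650 FPKM in the sh-LINC01977 libraries. The part of this shift in the values of the complement and coagulation genes was not tested.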

How the data were processed

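RNA was sequenced from 3 sh-NC and 3 sh-LINC01977 libraries of HepG2 cells, grouped by their genotype labels. The authors deposited 1 table with whole-number read counts per gene, not normalized, and FPKM values, which the authors had scaled to transcript length and library total. The submitters' processing notes name bcl2fastq 2.0, HISAT2, StringTie, DESeq2, limma and the build hg38, with no role for each. The counting tool, its strand setting and the annotation are not given in the sources used here.

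Counts were tested with edgeR 4.0.16 in R 4.3.3 (TMM scaling, quasi-likelihood test, Benjamini-Hochberg adjustment) over 13452 genes, those whose FPKM averaged 0.5 or more across libraries, which hold 99.5% to 99.6% of each library's counts. For the 20 members under this filter, values come from a second edgeR model with all 29153 genes. Intervals are 95% intervals of the log2 fold change. The code was run on counts simulated from the fitted edgeR model, with some genes changed by 2-fold. That simulation holds no smaller changes and no counts that recur in multiples, so it checks the code only. Counts of 4, 8 and 12 recur among low genes, which may mean that reads were not counted singly, and counts divided by 4 were an alternative. DESeq2 1.42.0, limma 3.58.1 on log2(FPKM + 0.1) and log2(FPKM + 1), other scalings and filters, a replicate block and leaving out each library were the others.

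The members and gene lists (vitamin K cycle, secretion, related genes outside KEGG, acute phase, liver transcription factors, and markers of hepatocytes, endothelium, platelets, leukocytes and stellate cells) were chosen with earlier results of these data known. Values per library are given for members past 2-fold and P of 0.05, for the 10 with the smallest p among those past the adjusted threshold and for the 10 with the highest FPKM, except 1 member that is not reported here. PROCR, PLAUR, KNG1, PLAT, C6, C4A and C4B were added after their values were seen. The listed genes CD14, AIF1, SOCS3, LBP, ITIH4 and SAA1 were added in the same way. Listed genes are named when among the 3 largest passing changes, and others (LMAN1, MCFD2, PTPRC, ACTA2, COL1A1, COL3A1, CSF1R, CD163, CD68, C1RL, PI4KA, MMP24-AS1) for their role beside a result. Promoters came from RefSeq (GRCh38.p14), where 52 of 69 members matched by symbol, and shared windows from the GENCODE transcripts.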

Additional observations from a re-analysis of the deposited data

How the results depend on the processing

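Over 16 alternatives no member among those recomputed reversed its direction. Of the 18 lower members 15 kept their call in every alternative run, as did 3 of the 5 higher ones, PROCR, C1R and PLAUR. Lower members at an adjusted p under 0.05 numbered 15 to 20. Higher members, 5 as reported, numbered 9 with library totals, 8 with limma on log2(FPKM + 0.1) and 8 on log2(FPKM + 1), and 3 to 4 with a library left out, with 3 without the first or the second sh-NC library, where F2R and CD55 were lost. At 2-fold and an unadjusted P of 0.05, the 6 lower members became 10 without the filter, where 69 rather than 49 members were tested. With limma on log2(FPKM + 1), which shrinks low genes, the 1 higher member became 0, with 9 higher at an unadjusted P under 0.05 and C1R at 0.94, and the median changed from -0.26 to -0.15. DESeq2 and limma on log2(FPKM + 0.1) each called 1 higher at 2-fold. Library totals moved the median of all genes to 0.065. With the replicate block 17 members were lower and 4 higher. Deviations of same-numbered libraries correlated at -0.0286, 0.0174 and 0.0552, so the numbers were not treated as pairs. Depth limits the members below the filter, where 9 of 20 had no count of 20 or more, and 3 libraries per group limit every p.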

Other observations

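During inflammation, IL-6 signalling in hepatocytes alters the output of acute-phase plasma proteins, fibrinogen among them. A list of acute-phase proteins and IL-6 signal genes had 14 tested members, of which 8 were lower and 1 higher at an adjusted p under 0.05 (edgeR). Of all tested genes, 8.07% were lower and 7.05% higher. Of its 7 secreted products 6 were lower, and of its 7 signal genes and C/EBP factors 2 were lower (STAT3 and CEBPB) and 1 higher (JAK1). Below the filter, SOCS3 had counts of 48, 18 and 19 in the sh-NC libraries and of 106, 111 and 128 in the sh-LINC01977 libraries. LBP had 8, 21 and 12 against 42, 38 and 12, and ITIH4 had 17, 9 and 9 against 15, 26 and 14. SAA1 had 0, 0 and 0 against 0, 8 and 0, and CRP and SAA2 were not among the genes listed. The summed FPKM of the list was 790 to 819 in the sh-NC libraries and 547 to 554 in the sh-LINC01977 libraries. SAA4, the constitutive serum amyloid A protein of lipoproteins, fell by 1.96 on the log2 scale (standard error 0.15, adjusted p = 0.000986). HP (haptoglobin, which binds free haemoglobin) fell by 0.95 (standard error 0.17, adjusted p = 0.0147) and ITIH3, a heavy chain of the inter-alpha-trypsin inhibitors, by 0.89 (standard error 0.077, adjusted p = 0.00135).

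Among liver transcription factors, ONECUT1, a factor of hepatocyte development, was among the 16 tested genes only through the group where it was high, with a mean FPKM of 0.928 in the sh-NC libraries and 0.319 in the sh-LINC01977 libraries, and no test is given for it. Of the other 15, 7 were lower, beside 8.07% of all tested genes. None was higher in edgeR, DESeq2 or limma, and none had an unadjusted P under 0.05 for an increase. NR1H4, the bile acid receptor, fell by 1.43 (standard error 0.10, adjusted p = 0.000871), ATF5, a stress-linked factor enriched in liver, by 0.68 (standard error 0.11, adjusted p = 0.00902) and HNF4A, a central regulator of hepatocyte genes, by 0.55 (standard error 0.082, adjusted p = 0.00715).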
